A study of Mus musculus with 8 samples.

Results

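Genes of glycolysis and genes induced by low oxygen were followed in annulus fibrosus (AF) tissue of the mouse lumbar disc. The members were the probe sets whose annotated symbol is one of 34 named genes, 25 of glycolysis and its transport and control and 9 hypoxia-induced, taken in the order of the pathway. Of these, 32 were measured, each by 1 probe set, out of 19572 probe sets with a symbol, and *Gpi1* and *Eno1* are not analysed here. The *Abcc6*-/- (KO) group was 4 female C57BL6J mice, numbered 6, 7, 8 and 9, with global deletion of *Abcc6*. The wild-type (WT) group was 4 female mice, numbered 1, 2, 3 and 5. All were 7 months old, and the lumbar AF tissue of each mouse was pooled into 1 RNA sample for 1 Mouse Clariom S array. Values are log2 signal, so that a difference of 1 is 2-fold.

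Glycolysis splits glucose into pyruvate in the cytosol and yields ATP without oxygen. Glucose enters through transporters, is phosphorylated and split, and the carbon leaves as pyruvate or, after reduction, as lactate. The disc has few blood vessels and its cells are known to lean on this route. When oxygen is low, the transcription factor HIF-1 is stabilised and binds hypoxia response elements near genes of glycolysis and of the wider hypoxia response. Their core is ACGTG or GCGTG, and only ACGTG was searched here.

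Before the genes themselves, some facts of the arrays bear on all values. The probe set of *Abcc6* stood at 6.17, 5.64, 5.01 and 5.56 log2 in KO mice 6, 7, 8 and 9, against 5.15, 5.25, 5.23 and 4.97 log2 in WT mice 1, 2, 3 and 5, and exceeded the background level, taken as the median signal of all negative control probe sets on the array, in 1 of 8 mice, so it checks no genotype. The contrast between positive and negative control probe sets of an array was 2.37 to 4.30 log2 in KO mice and 3.17 to 4.28 log2 in WT mice (2-sided exact permutation test, p = 0.20). In this contrast KO mouse 8, at 4.30 log2, stood apart from KO mice 6, 7 and 9, at 2.37 to 2.99 log2. The collagen gene *Col1a1*, on the AF marker list, was at 15.65 to 17.22 log2 in KO and 15.58 to 17.52 log2 in WT mice. In contrast *Scx*, a transcription factor of tendon and AF, did not exceed background in any mouse. Of 12 AF markers, 8 to 10 exceeded background in KO mice and 8 to 10 in WT mice. Their mean was 9.66 to 10.43 log2 in KO and 9.90 to 10.46 log2 in WT mice.

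No gene of glycolysis or of the hypoxia response passed the test between genotypes, but most KO means lay below the WT means. The KO mean was below the WT mean for 28 of 32 genes, namely 20 of 23 glycolysis genes and 8 of 9 hypoxia-induced genes, where 47.6% of all 22206 probe sets tested had the lower mean in KO mice. The median difference, KO minus WT, was −0.56 log2 for the glycolysis genes and −0.38 log2 for the hypoxia-induced genes, against 0.03 log2 for all probe sets. With the skeletal muscle markers as a covariate these medians were −0.33 and −0.22 log2, and with the erythroid markers −0.35 and −0.22 log2. Of the 15 muscle markers, 14 exceeded background in WT mouse 1 and 7 to 10 in each other mouse. That covariate therefore mostly sets WT mouse 1 apart. Without WT mouse 1 the medians were −0.40 and −0.34 log2, and without WT mouse 3 they were −0.42 and −0.06 log2. In limma, which moderates the variance of each probe set towards the others, the cutoff of the study (unadjusted p of at most 0.01 and fold change of at least 1.75) was reached by 0 of 32 genes and by 0.725% of all probe sets. The adjusted p-values of the 32 genes, from limma with the Benjamini-Hochberg correction over all probe sets, ran from 0.848 to 0.999, and an adjusted p under 0.05 was found for 0% of all probe sets. At an unadjusted p under 0.05, 3 genes (*Hk2*, *Pfkp* and *Ndrg1*) had the lower mean in KO mice and 0 the higher, where the shares of all probe sets were 2.46% and 2.82%. For 0 of 32 genes were all KO mice below all WT mice, and for 0 were they all above, against 0.973% and 1.55% of all probe sets. Of the 32 differences, 21 were smaller than the SD within the genotypes, as were 76.7% of those of all probe sets.

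**Figure D1:**
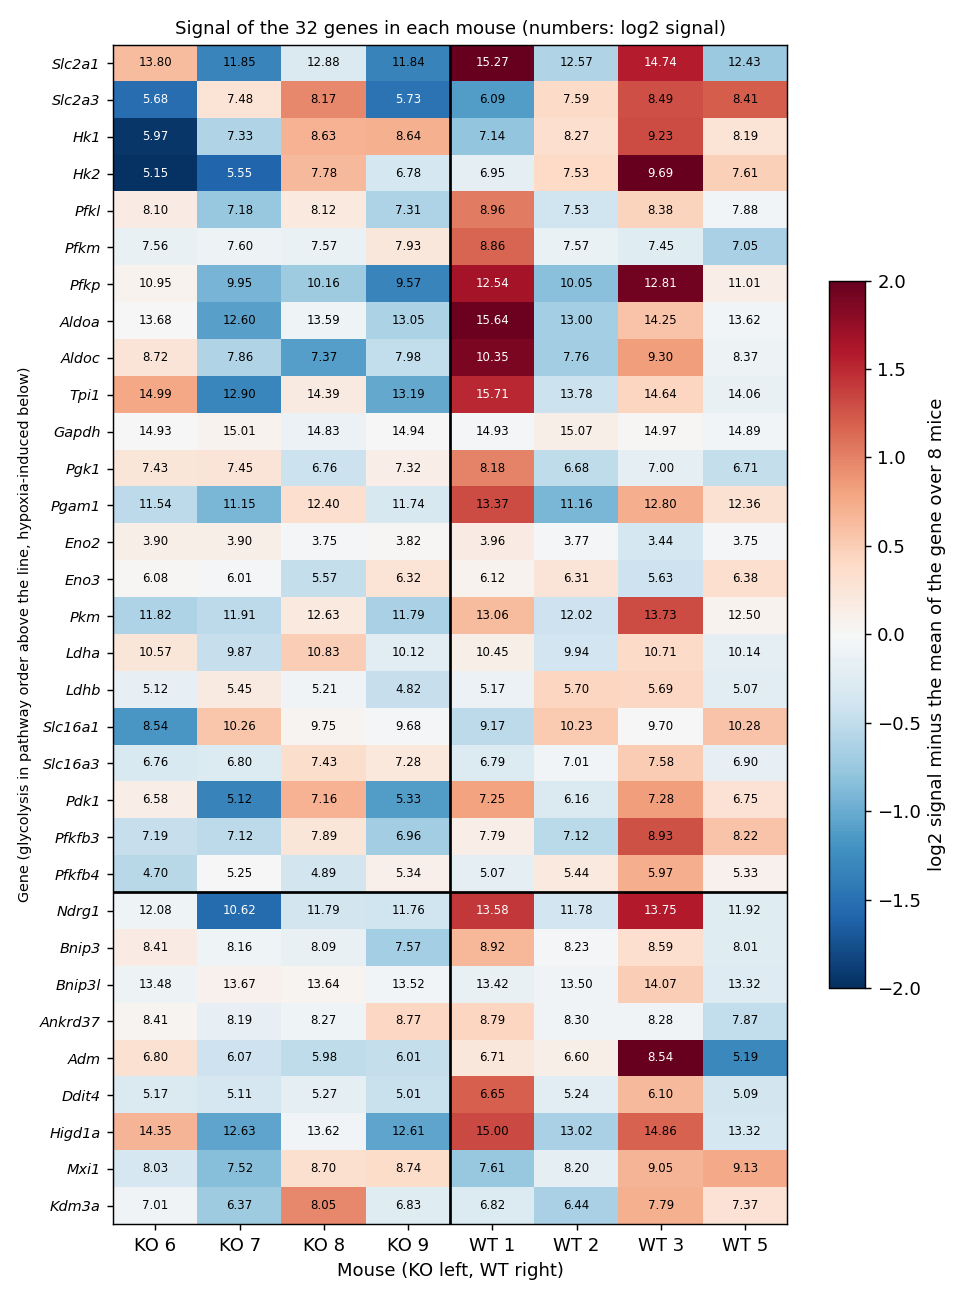
Log2 signal of the 32 genes (rows; glycolysis in pathway order, then hypoxia-induced genes) in the 4 KO and 4 WT mice (columns), with colour for the distance from the mean of the gene over 8 mice. The red cells of WT mice 1 and 3 stand out, with *Slc2a1* at 15.27 and 14.74 log2, while *Gapdh* is flat at 14.83 to 15.07 log2.

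The promoters show where the members carry ACGTG, a form of the core of the hypoxia response element. RefSeq promoter windows (GRCm38.p6, 250 bases before to 50 bases after a start) were matched by symbol for 29 of 32 genes, and *Slc2a3*, *Ndrg1* and *Bnip3l* are named only. The letters ACGTG, on either strand, were found in 23 of 44 windows, or 52.3%, against 19.6% of all 32851 windows. The palindrome CACGTG counts on both strands, as it did in 5 of the 44 windows. By gene, 19 of 29 held the motif in a window, against 21.8% of all genes. The members were chosen from pathways that HIF-1 is known to act on, so neither excess is an independent result. The median difference between genotypes was −0.56 log2 for the genes with the motif, against −0.46 log2 for the 10 genes without it. A match is a description of letters and not of binding. The 250 bases before the start are shown for the hexokinase and glucose transporter genes with the most negative differences and for *Ldha* and *Pgk1*, which hold as many matches or more with differences near 0 log2. They lie at chr6:82774455-82774704 (minus strand, *Hk2*), chr4:119108495-119108744 (plus strand, *Slc2a1*), chr7:46845554-46845803 (plus strand, *Ldha*) and chrX:106186850-106187099 (plus strand, *Pgk1*). Capitals mark ACGTG or its reverse complement CACGT.
Hk2: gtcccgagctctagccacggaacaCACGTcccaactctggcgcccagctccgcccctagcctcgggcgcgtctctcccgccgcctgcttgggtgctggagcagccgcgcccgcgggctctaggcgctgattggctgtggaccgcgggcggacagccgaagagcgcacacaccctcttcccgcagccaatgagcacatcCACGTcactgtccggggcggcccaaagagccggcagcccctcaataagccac
Slc2a1: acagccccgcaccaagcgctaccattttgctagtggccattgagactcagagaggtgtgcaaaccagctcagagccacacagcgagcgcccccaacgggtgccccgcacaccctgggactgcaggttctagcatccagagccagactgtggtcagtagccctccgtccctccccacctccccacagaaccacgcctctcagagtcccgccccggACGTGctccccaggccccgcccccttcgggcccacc
Ldha: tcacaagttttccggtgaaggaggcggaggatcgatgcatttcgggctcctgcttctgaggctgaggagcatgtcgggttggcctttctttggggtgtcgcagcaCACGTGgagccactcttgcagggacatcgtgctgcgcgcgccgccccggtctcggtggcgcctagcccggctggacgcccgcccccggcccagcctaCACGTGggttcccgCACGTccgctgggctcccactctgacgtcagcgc
Pgk1: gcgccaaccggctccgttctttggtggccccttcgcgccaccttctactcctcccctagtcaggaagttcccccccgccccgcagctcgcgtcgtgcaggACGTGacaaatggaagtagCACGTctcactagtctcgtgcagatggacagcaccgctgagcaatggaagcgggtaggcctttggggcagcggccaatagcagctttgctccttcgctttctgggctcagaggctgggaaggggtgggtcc
The stretches hold 2, 1, 5 and 2 matches, in that order. The differences between genotypes were −1.63 log2 for *Hk2*, −1.16 log2 for *Slc2a1*, 0.04 log2 for *Ldha* and 0.10 log2 for *Pgk1*. The genes were picked on both values, so nothing follows from setting matches against differences. *Pfkp*, with a difference of −1.45 log2, held no match to ACGTG in its window. The other form of the core, GCGTG, occurs in that window but was not counted in any gene.

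Glucose uptake begins the pathway. *Slc2a1*, which encodes the broadly expressed glucose transporter GLUT1, was at 13.80, 11.85, 12.88 and 11.84 log2 in KO mice 6, 7, 8 and 9, against 15.27, 12.57, 14.74 and 12.43 log2 in WT mice 1, 2, 3 and 5. WT mice 1 and 3 were above every KO mouse, whereas WT mice 2 and 5 lay within the KO range. The difference was −1.16 log2 (standard error 0.70, adjusted p = 0.848 from limma), and −0.66 log2 without WT mouse 1. *Slc2a3*, which encodes the high-affinity transporter GLUT3, was at 5.68, 7.48, 8.17 and 5.73 log2 in KO mice, against 6.09, 7.59, 8.49 and 8.41 log2 in WT mice, a difference of −0.88 log2 (standard error 0.68). The lowest values were those of KO mice 6 and 9, and both were at or under the background of their arrays, as in no other mouse.

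The hexokinases trap glucose in the cell by phosphorylating it, and *Hk2*, the isoform known as a HIF-1 target, had the most negative difference of the 32 genes. *Hk2* was at 5.15, 5.55, 7.78 and 6.78 log2 in KO mice 6, 7, 8 and 9, against 6.95, 7.53, 9.69 and 7.61 log2 in WT mice 1, 2, 3 and 5. The means were 6.31 ± 1.20 log2 in KO and 7.95 ± 1.20 log2 in WT mice (SD, n = 4 each), and the groups overlapped through KO mouse 8. The difference of −1.63 log2 (standard error 0.68) had an unadjusted p of 0.037 and an adjusted p of 0.848 in limma, and a 2-sided exact permutation test of the 4 and 4 mice gave p = 0.14. The smallest p that such a test can give is 0.029. With each mouse left out in turn the difference ran from −2.12 log2 without KO mouse 8, which reached the cutoff (unadjusted p = 0.0094, adjusted p = 0.221 from limma), to −1.05 log2 without WT mouse 3, which did not. Without KO mouse 8, 4.47% of all probe sets reached the cutoff. KO mice 6 and 7, the lowest, were under the background of their arrays. *Hk1*, the constitutive hexokinase, was at 5.97, 7.33, 8.63 and 8.64 log2 in KO mice, against 7.14, 8.27, 9.23 and 8.19 log2 in WT mice. Its SD was 1.27 log2 among KO mice, more than the difference of −0.56 log2.

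Phosphofructokinase commits sugar to glycolysis, and 3 genes encode its subunits. *Pfkp*, the platelet-type subunit, was at 10.95, 9.95, 10.16 and 9.57 log2 in KO mice 6, 7, 8 and 9, against 12.54, 10.05, 12.81 and 11.01 log2 in WT mice 1, 2, 3 and 5. All WT mice but mouse 2 were above all KO mice. The difference was −1.45 log2 (standard error 0.59, unadjusted p = 0.033, adjusted p = 0.848 from limma). With each mouse left out it ran from −1.96 log2 without WT mouse 2, which reached the cutoff (unadjusted p = 0.0032, adjusted p = 0.669 from limma), as did 1.25% of all probe sets, to −1.04 log2 without WT mouse 3, which did not. *Pfkl*, the liver-type subunit, averaged 7.68 ± 0.50 log2 in KO and 8.19 ± 0.62 log2 in WT mice (SD, n = 4 each). *Pfkm*, the muscle-type subunit, averaged 7.66 ± 0.18 log2 in KO and 7.73 ± 0.78 log2 in WT mice (SD, n = 4 each). WT mouse 1 held its highest value, 8.86 log2, and without that mouse the difference of −0.07 log2 became 0.31 log2. The 15 skeletal muscle markers averaged 5.87 to 6.10 log2 in KO mice, while WT mouse 1 was at 7.04 log2 and WT mice 2, 3 and 5 were at 5.91 to 6.21 log2. With their mean as a covariate, the difference in *Pfkm* was 0.41 log2.

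*Pfkfb3* and *Pfkfb4* encode bifunctional enzymes that set the level of fructose 2,6-bisphosphate, an activator of phosphofructokinase. *Pfkfb3* was at 7.19, 7.12, 7.89 and 6.96 log2 in KO mice, against 7.79, 7.12, 8.93 and 8.22 log2 in WT mice, a difference of −0.72 log2 (standard error 0.40). WT mice 1 and 2 lay within the KO range. *Pfkfb4* ran from 4.70 to 5.34 log2 in KO and from 5.07 to 5.97 log2 in WT mice, and it exceeded background in 1 mouse.

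**Figure D2:**
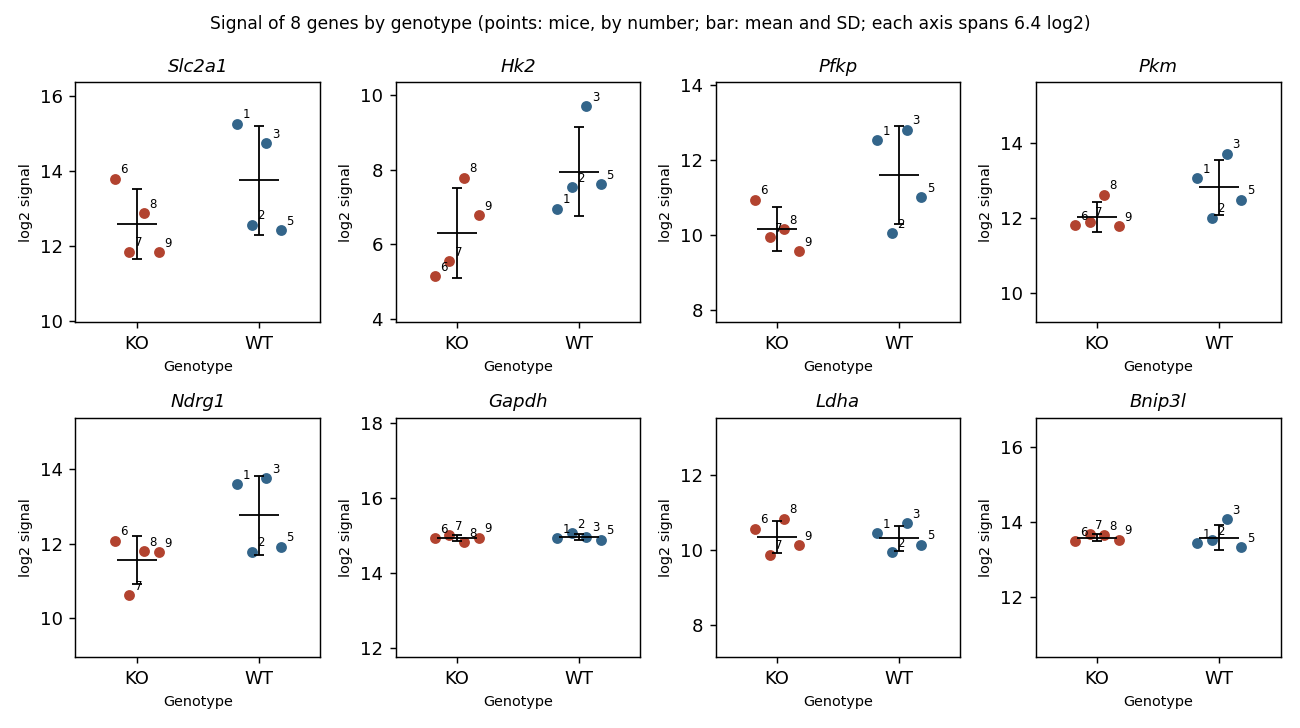
Log2 signal of 8 genes in KO (left) and WT (right) mice, with points for mice by number and bars for mean and SD, every axis spanning the same log2 width. *Slc2a1*, *Hk2*, *Pfkp*, *Pkm* and *Ndrg1* spread over mice of both genotypes with overlap, whereas *Gapdh* stays between 14.83 and 15.07 log2.

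The middle of the pathway runs from the aldolases, which split the sugar, to pyruvate kinase. *Aldoa*, the aldolase of muscle and most other tissues, was at 13.68, 12.60, 13.59 and 13.05 log2 in KO mice 6, 7, 8 and 9, against 15.64, 13.00, 14.25 and 13.62 log2 in WT mice 1, 2, 3 and 5. Its difference of −0.90 log2 (standard error 0.52) ran from −1.28 log2 without WT mouse 2 to −0.39 log2 without WT mouse 1. *Aldoc*, the brain-type aldolase, averaged 7.98 ± 0.56 log2 in KO and 8.94 ± 1.13 log2 in WT mice (SD, n = 4 each), again with the highest value, 10.35 log2, in WT mouse 1. *Tpi1*, the triose phosphate isomerase, was at 14.99, 12.90, 14.39 and 13.19 log2 in KO mice, against 15.71, 13.78, 14.64 and 14.06 log2 in WT mice. KO mouse 6 was second only to WT mouse 1 in this gene, so that the groups overlapped widely (difference −0.68 log2, standard error 0.55).

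*Gapdh*, which encodes the dehydrogenase often taken as a reference gene, stood at 14.93, 15.01, 14.83 and 14.94 log2 in KO mice, against 14.93, 15.07, 14.97 and 14.89 log2 in WT mice. It had the smallest range of the 32 genes, 0.24 log2 over 8 mice, whereas the median range of the 32 genes was 1.80 log2. *Gapdh* has many processed pseudogenes in the mouse, and how far its probes separate them was not tested. *Pgk1*, the first ATP-yielding kinase of the pathway, averaged 7.24 ± 0.32 log2 in KO and 7.14 ± 0.71 log2 in WT mice (SD, n = 4 each), a difference of 0.10 log2 (standard error 0.37).

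*Pgam1*, a phosphoglycerate mutase, was at 11.54, 11.15, 12.40 and 11.74 log2 in KO mice 6, 7, 8 and 9, against 13.37, 11.16, 12.80 and 12.36 log2 in WT mice 1, 2, 3 and 5. The difference was −0.71 log2 (standard error 0.47), with WT mouse 2 near the lowest KO mouse. Of the enolases, the neuronal gene *Eno2* exceeded background in 0 of 8 mice, with 3.75 to 3.90 log2 in KO and 3.44 to 3.96 log2 in WT mice. The muscle gene *Eno3* was at 5.57 to 6.32 log2 in KO and 5.63 to 6.38 log2 in WT mice, and exceeded background in 7 of 8 mice. *Pkm*, the pyruvate kinase gene whose product forms ATP and pyruvate in the last step, was at 11.82, 11.91, 12.63 and 11.79 log2 in KO mice, against 13.06, 12.02, 13.73 and 12.50 log2 in WT mice. WT mice 1 and 3 exceeded every KO mouse, and the difference was −0.79 log2 (standard error 0.39, unadjusted p = 0.071 and adjusted p = 0.848 from limma).

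Pyruvate is reduced to lactate and exported, or enters the mitochondria. *Ldha*, the lactate dehydrogenase subunit that favours lactate formation, was at 10.57, 9.87, 10.83 and 10.12 log2 in KO mice, against 10.45, 9.94, 10.71 and 10.14 log2 in WT mice. The highest and the lowest mouse were both KO mice, and the difference was 0.04 log2 (standard error 0.31). *Ldhb*, its partner subunit, exceeded background in 1 of 8 mice. *Slc16a1* and *Slc16a3* encode the lactate carriers MCT1 and MCT4, the second being the exporter of glycolytic cells. *Slc16a3* averaged 7.07 ± 0.34 log2 in KO and 7.07 ± 0.35 log2 in WT mice (SD, n = 4 each), and *Slc16a1* averaged 9.56 ± 0.72 log2 in KO and 9.84 ± 0.52 log2 in WT mice. *Pdk1*, a kinase that shuts pyruvate out of the mitochondrial oxidation route, was at 6.58, 5.12, 7.16 and 5.33 log2 in KO mice 6, 7, 8 and 9, against 7.25, 6.16, 7.28 and 6.75 log2 in WT mice 1, 2, 3 and 5. KO mice 7 and 9 were lowest and were under background, while KO mouse 8 lay just below WT mice 1 and 3. The *Pdk1* difference was −0.81 log2 (standard error 0.48) in all mice, from −1.18 log2 without KO mouse 8 to −0.50 log2 without KO mouse 7, and −0.11 log2 with the control contrast as a covariate.

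**Figure D3:**
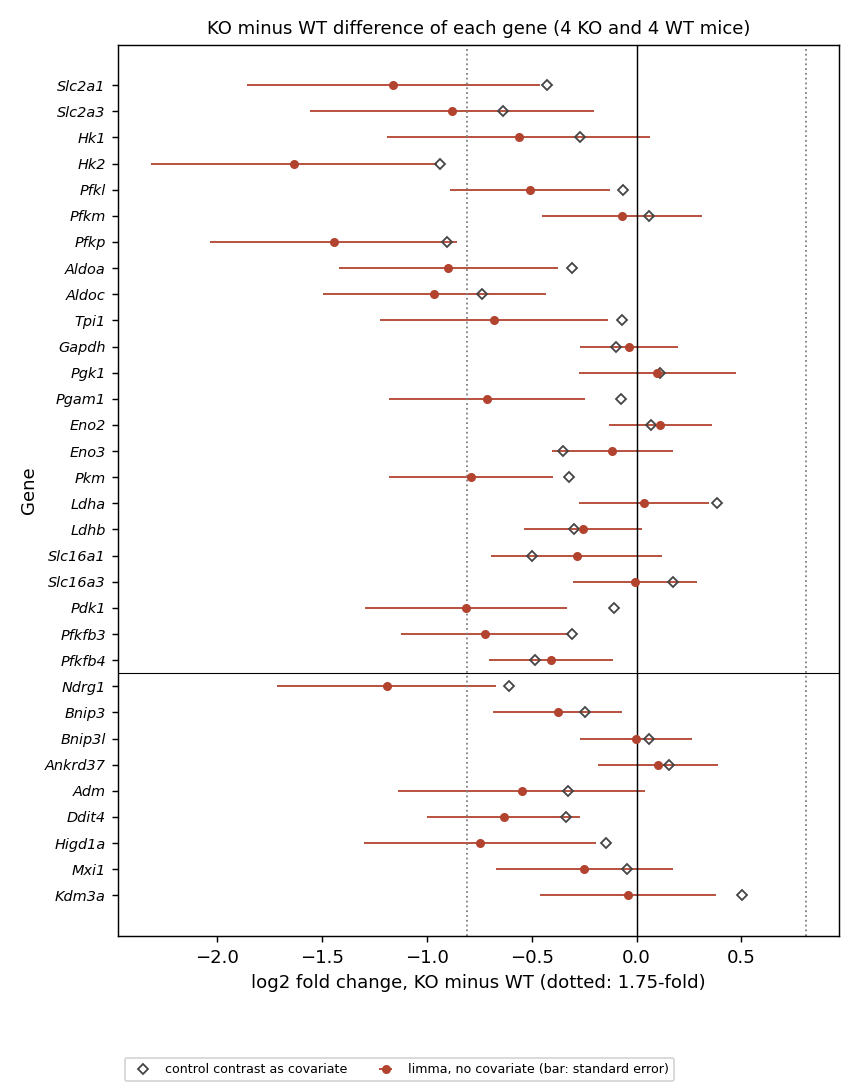
KO minus WT difference in log2 signal for each of the 32 genes (filled points, bars for the standard error in limma) and the same with the control contrast of the array as a covariate (open diamonds). *Hk2* lies lowest at −1.63 log2, and 28 of the 32 filled points lie below 0.

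Among the hypoxia-induced genes, *Ndrg1*, a stress-response gene and a widely used hypoxia marker, differed most. *Ndrg1* was at 12.08, 10.62, 11.79 and 11.76 log2 in KO mice 6, 7, 8 and 9, against 13.58, 11.78, 13.75 and 11.92 log2 in WT mice 1, 2, 3 and 5. WT mice 1 and 3 were above every KO mouse, whereas WT mice 2 and 5 lay within the KO range. The difference was −1.19 log2 (standard error 0.52, unadjusted p = 0.044 and adjusted p = 0.848 from limma), and a 2-sided exact permutation test gave p = 0.17.

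*Bnip3* and *Bnip3l* encode receptors that tag mitochondria for autophagy. *Bnip3* was at 8.41, 8.16, 8.09 and 7.57 log2 in KO mice, against 8.92, 8.23, 8.59 and 8.01 log2 in WT mice. *Bnip3l*, which is also known for clearing mitochondria from maturing red cells, was at 13.48, 13.67, 13.64 and 13.52 log2 in KO mice, against 13.42, 13.50, 14.07 and 13.32 log2 in WT mice. Both genotypes averaged 13.58 log2, and the difference was 0.24 log2 after quantile normalization. The 8 measured erythroid markers averaged 11.42 to 12.64 log2 in KO and 10.31 to 12.41 log2 in WT mice, and with their mean as a covariate the difference in *Bnip3l* stayed within 0.01 log2 of 0. *Higd1a*, a mitochondrial protein induced by hypoxia, was at 14.35, 12.63, 13.62 and 12.61 log2 in KO mice, against 15.00, 13.02, 14.86 and 13.32 log2 in WT mice, a difference of −0.75 log2 (standard error 0.55).

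*Ddit4*, which encodes REDD1, an inhibitor of mTORC1, was at 5.17, 5.11, 5.27 and 5.01 log2 in KO mice, against 6.65, 5.24, 6.10 and 5.09 log2 in WT mice. It exceeded background in WT mice 1 and 3 only. *Adm*, which encodes the vasoactive peptide adrenomedullin, averaged 6.21 ± 0.39 log2 in KO and 6.76 ± 1.37 log2 in WT mice (SD, n = 4 each). WT mouse 3 held 8.54 log2 and WT mouse 5 held 5.19 log2, and without WT mouse 3 the difference of −0.55 log2 became 0.05 log2, and without WT mouse 5 it was −1.07 log2. *Ankrd37*, *Mxi1* (a MAX-binding repressor) and *Kdm3a* (a histone demethylase) had differences of 0.10, −0.25 and −0.04 log2, each smaller than the SD within the genotypes.

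Mice of 1 genotype differed widely in many of these genes, as in other probe sets. The median SD within the genotypes was 0.62 log2 for the 32 genes. It was 0.58 log2 for all probe sets above background in every mouse. WT mice 1 and 3 were the highest pair in 12 of 32 genes, a pattern noted after the values were seen, which held for 4.82% of all probe sets and for 7.04% of the 10614 probe sets above background in every mouse. *Slc2a1*, *Pfkl*, *Pfkp*, *Aldoa*, *Aldoc*, *Pgam1*, *Pkm* and *Pdk1* were the glycolysis genes with this order, and *Ndrg1*, *Bnip3*, *Ddit4* and *Higd1a* the hypoxia-induced ones. In 17 of 32 genes, WT mice 2 and 5 both lay within the range of the KO mice, near the share of 56.1% over all probe sets. The mean over the 23 glycolysis genes was 8.69, 8.50, 9.03 and 8.59 log2 in KO mice 6, 7, 8 and 9, against 9.51, 8.79, 9.67 and 9.04 log2 in WT mice 1, 2, 3 and 5. The mean over the 9 hypoxia-induced genes was 9.30, 8.70, 9.27 and 8.98 log2 in KO mice, against 9.72, 9.03, 10.11 and 9.02 log2 in WT mice.

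The control contrast of the arrays varied beside these means. It was 2.99, 2.37, 4.30 and 2.85 log2 in KO mice 6, 7, 8 and 9, against 4.28, 3.17, 4.22 and 3.61 log2 in WT mice 1, 2, 3 and 5, being lowest in KO mouse 7, which also had the lowest mean of both gene groups. KO mouse 8, with the highest contrast of all mice, had the highest glycolysis mean of the KO mice. That mean, 9.03 log2, lay below those of WT mice 1, 3 and 5. Over the hypoxia-induced genes KO mouse 8, at 9.27 log2, lay below KO mouse 6, at 9.30 log2. With the contrast as a covariate, the median difference was −0.30 log2 for the glycolysis genes and −0.15 log2 for the hypoxia-induced genes, 24 of 32 genes had the lower mean in KO mice, and 0 reached the cutoff. *Hk2*, *Pfkp*, *Ndrg1* and *Slc2a1* then differed by −0.94, −0.90, −0.61 and −0.43 log2. Without KO mouse 8 the medians were −0.76 and −0.40 log2. Among the 10614 probe sets above background in every mouse, 58.9% had the lower mean in KO mice and the median difference was −0.11 log2, against 20 of 23 genes and −0.51 log2 for the members above it in every mouse. With the contrast as a covariate, the median was −0.01 log2 for these probe sets and −0.10 log2 for these 23 members. How far the contrast sets the differences was not tested further.

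**Figure D4:**
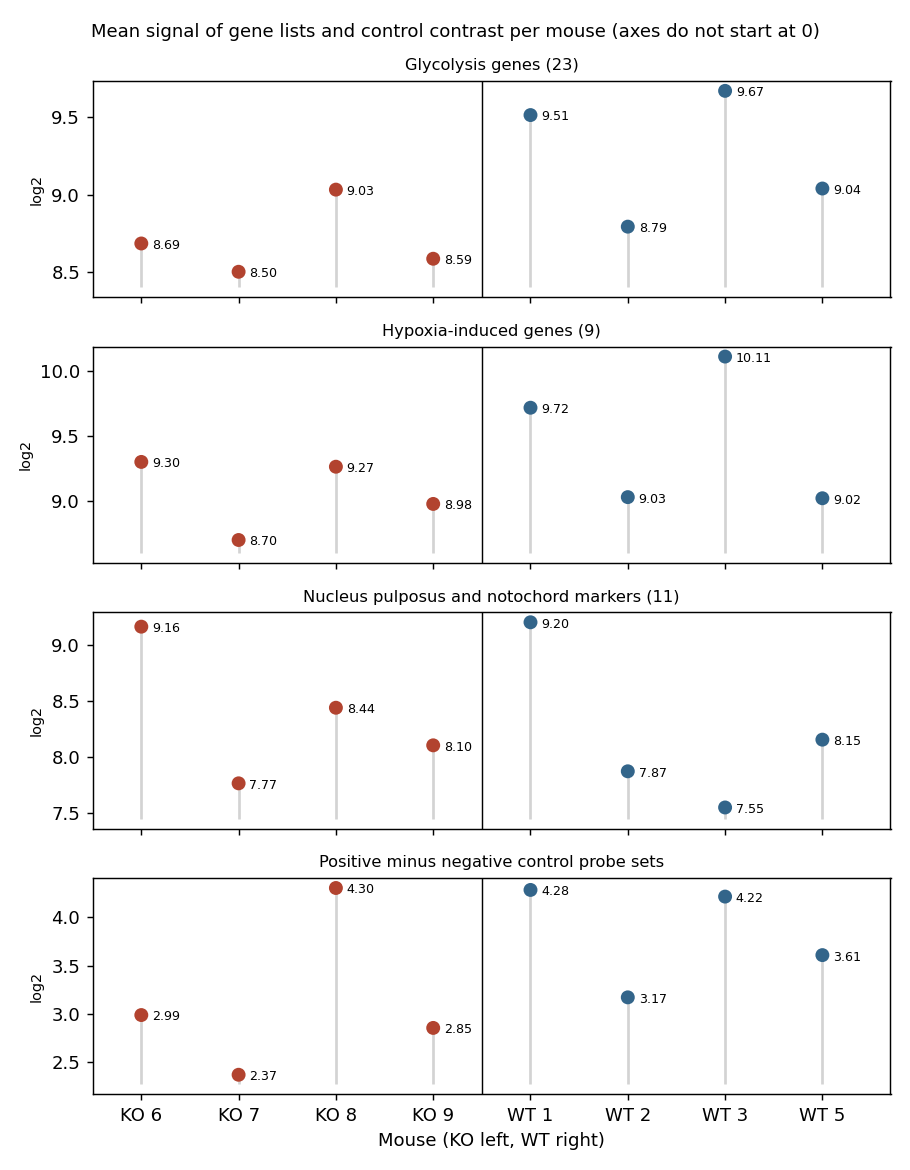
Mean log2 signal of the glycolysis genes, the hypoxia-induced genes and the nucleus pulposus and notochord markers in each mouse, with the contrast of positive and negative control probe sets below. KO mouse 7 is lowest in both gene groups (8.50 and 8.70 log2) and in the contrast (2.37 log2), while the nucleus pulposus markers are high in KO mouse 6 and WT mouse 1.

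Neighbouring tissue was followed with marker lists. Fewer cells of a type and less RNA per cell cannot be told apart in such bulk tissue. The 11 measured markers of nucleus pulposus and notochord, the glycolytic core of the disc, averaged 9.16, 7.77, 8.44 and 8.10 log2 in KO mice 6, 7, 8 and 9, against 9.20, 7.87, 7.55 and 8.15 log2 in WT mice 1, 2, 3 and 5. Of these, 9 to 10 exceeded background in KO mice and 10 in WT mice, and the notochord marker *Foxa2* did so in 0 of 8 mice. The marker *T* of this list was not measured. *Krt19*, a keratin of these cells, was at 10.67 log2 in KO mouse 6 and 10.89 log2 in WT mouse 1, with 7.63 to 8.43 log2 in KO mice 7 to 9 and 6.22 to 8.32 log2 in WT mice 2, 3 and 5. WT mouse 3, with the highest mean of the glycolysis genes, had the lowest mean of these markers. With this mean as a covariate, an alternative added after the values were seen, 0 of 32 genes reached the cutoff. *Hk2*, *Pfkp*, *Slc2a1* and *Ndrg1* then differed by −1.47, −1.55, −1.36 and −1.29 log2. The median differences were −0.62 log2 for the glycolysis genes and −0.43 log2 for the hypoxia-induced genes. The part of these markers in the differences was not tested further.
Markers of nerve and Schwann cells averaged 8.24 log2 in KO mouse 6 and 5.77 to 6.32 log2 in KO mice 7, 8 and 9. WT mouse 1 was at 11.30 log2 and WT mice 2, 3 and 5 were at 6.38 to 6.58 log2. With the muscle markers as a covariate, *Slc2a1*, *Pfkp*, *Ndrg1* and *Hk2* differed by −0.48, −0.97, −0.81 and −1.97 log2, and with the erythroid markers by −0.43, −0.78, −0.80 and −2.09 log2. The 8 erythroid markers all had the higher mean in KO mice, by 0.62 log2 over the list. The 8 chondrocyte markers averaged 11.58, 10.15, 11.70 and 10.62 log2 in KO mice 6, 7, 8 and 9, against 11.21, 11.37, 12.25 and 10.88 log2 in WT mice 1, 2, 3 and 5, being lowest in KO mouse 7 and highest in WT mouse 3, as were the glycolysis genes. Of 14 neutrophil markers, 12 had the lower mean in KO mice, with list means of 14.99 to 17.12 log2 in KO and 16.39 to 17.03 log2 in WT mice. The part of the nerve and Schwann cell, chondrocyte and neutrophil markers in the differences was not tested.
With WT mouse 1 and KO mouse 6 both left out, also added after the values were seen, *Hk2*, *Pfkp* and *Slc2a1* differed by −1.58, −1.40 and −1.06 log2, and 0 of 32 genes reached the cutoff.

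The rest of the pathway was described with 4 further lists, of which 79 of 88 genes were measured. Of these, 0 reached the cutoff, 5 had an unadjusted limma p under 0.05 with the lower mean in KO mice (*Dlat*, *Plin2*, *Hilpda*, *Zfp395* and *Ndufa4l2*, named after their values were seen) and 1 with the higher (*Rpia*), where all probe sets gave 2.46% and 2.82%. The KO mean was below the WT mean for 59 of 79, with a median difference of −0.24 log2. With the control contrast as a covariate, the median over the 79 genes was −0.04 log2. Pyruvate entry into mitochondria, comprising the carrier, the pyruvate dehydrogenase complex and its regulators, had the lower mean in KO mice in 12 of 12 genes (median −0.35 log2). *Dlat*, the acetyltransferase of that complex, was at 8.14, 7.71, 8.99 and 8.41 log2 in KO mice, against 10.10, 9.32, 8.71 and 8.78 log2 in WT mice (difference −0.91 log2, standard error 0.39). Glycogen and pentose phosphate genes had the lower mean in 9 of 13 (median −0.48 log2). The other isoforms and regulators of glycolysis split evenly, 10 of 20 (median 0.01 log2), and 9 of those 20 exceeded background in 0 of 8 mice. With the control contrast as a covariate, the medians of pyruvate entry and of glycogen and pentose phosphate were both −0.19 log2.

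**Figure D5:**
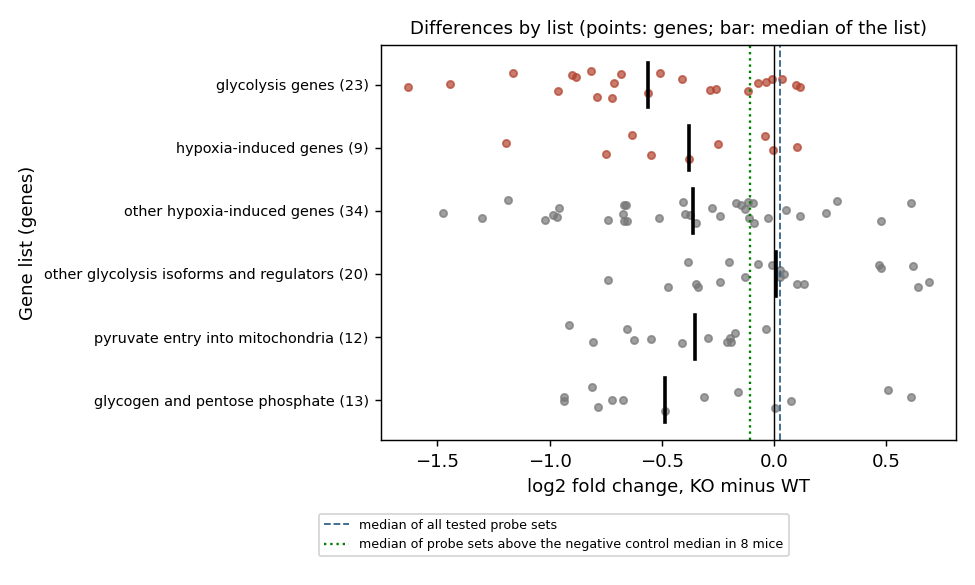
KO minus WT difference in log2 signal of each gene (points), by list, with the median of the list as a bar and the medians of all probe sets and of those above background in 8 mice as vertical lines. The medians run from −0.56 log2 in the glycolysis genes to 0.01 log2 in the other isoforms and regulators.

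*Rpia* and *Slc2a4* were the pathway genes with every KO mouse above every WT mouse, and *Zfp395* the one with every KO mouse below, that is 2 and 1 of 79 genes, near the 1.55% and 0.973% of all probe sets. *Rpia*, the ribose 5-phosphate isomerase, was at 6.53, 7.34, 6.73 and 6.76 log2 in KO mice 6, 7, 8 and 9, against 6.22, 6.27, 6.29 and 6.15 log2 in WT mice 1, 2, 3 and 5 (difference 0.61 log2, standard error 0.27, adjusted p = 0.848 from limma). *Slc2a4*, which encodes the insulin-regulated transporter GLUT4, averaged 6.22 ± 0.20 log2 in KO and 5.75 ± 0.05 log2 in WT mice (SD, n = 4 each), with a difference of 0.47 log2 (standard error 0.24). *Rpia* exceeded background in 8 mice and *Slc2a4* in 7. Of the 34 measured hypoxia-induced genes outside the members, 28 had the lower mean in KO mice (median −0.36 log2). Their median was −0.05 log2 with the control contrast as a covariate. *Zfp395*, a zinc-finger gene, was at 5.83, 5.93, 6.29 and 6.23 log2 in KO mice, against 6.78, 6.63, 6.97 and 6.59 log2 in WT mice (difference −0.67 log2, standard error 0.25, adjusted p = 0.848 from limma).
*Vegfa*, the angiogenic growth factor, averaged 12.47 ± 0.23 log2 in KO and 12.85 ± 0.44 log2 in WT mice (SD, n = 4 each), a difference of −0.37 log2. *Egln3*, an oxygen-sensing prolyl hydroxylase, was at 7.18, 5.93, 7.21 and 7.21 log2 in KO mice, against 7.98, 5.96, 8.67 and 7.59 log2 in WT mice. Its difference was −0.67 log2 (standard error 0.55, adjusted p = 0.848 from limma), and KO mouse 7 and WT mouse 2 held the lowest values. The study lists this gene among those higher in KO mice, the opposite of the direction found here, whereas the genes its text names beside it as higher had the higher mean in KO mice.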

How the data were processed

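RNA of lumbar AF tissue from 4 KO and 4 WT mice was hybridized to Mouse Clariom S arrays, 1 per mouse. The authors summarised them in Transcriptome Analysis Console, and the deposited values are log2 signal after sst-RMA; the genome build is not given in the sources used here. Of 28846 probe sets, 6640 controls were left out and 22206 tested, 19572 of them with 1 symbol. KO minus WT was fitted with limma 3.58.1 in R 4.3.3, without covariates, and calls follow the cutoff of the study (p of at most 0.01, fold change of at least 1.75). Detection p-values were not at hand, so no probe set was removed as undetected. Signal was read against the median of 5222 negative control probe sets, and the control contrast used 1324 positive ones. Alternatives were quantile normalization, median centring, a filter on dim probe sets, trended robust variance, array weights, an unpaired t-test, covariates (muscle markers, erythroid markers, control contrast), a looser cutoff and each mouse left out, and, added after the values were seen, nucleus pulposus markers as a covariate and WT mouse 1 and KO mouse 6 left out together. The fit was tested on simulated data. The number of arrays limits the precision. All 34 members are named; other pathway genes are named where they were called or did not overlap, with *Egln3* and *Vegfa*. *Dlat*, *Plin2*, *Hilpda*, *Ndufa4l2*, *Pygm*, *Krt19*, *Foxa2*, *Col1a1* and *Scx* were named after their values were seen. Members and lists were chosen with earlier results of these data known.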

Additional observations from a re-analysis of the deposited data

Results flagged for a closer look

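Of 64 groups of 4 mice (32 genes in each genotype), 3 held a mouse whose gap to its nearest neighbour passed Dixon's critical value for the share of the range of its group, where chance flags about 1 in 20 groups. *Pfkm* was at 7.93 log2 in KO mouse 9 and at 7.56 to 7.60 log2 in KO mice 6, 7 and 8. *Pkm* was at 12.63 log2 in KO mouse 8 and at 11.79 to 11.91 log2 in KO mice 6, 7 and 9. *Adm* was at 6.80 log2 in KO mouse 6 and at 5.98 to 6.07 log2 in KO mice 7, 8 and 9.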

How the results depend on the processing

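Across 19 alternatives, 21 of 32 genes kept 1 direction, 20 of them with the lower mean in KO mice, while among uncalled genes up to 4 changed sign under any 1 alternative. The unpaired t-test, the trended robust variance and the filter on dim probe sets leave the differences unchanged, so no sign could change under them. The share of all probe sets that kept 1 direction was not computed. The number of members at the cutoff was 0, with a range of 0 to 1 when each mouse was left out (1 without KO mouse 8, *Hk2*, and 1 without WT mouse 2, *Pfkp*), and 3 at p of at most 0.05 and 1.5-fold. The number of other pathway genes was 0, with a range of 0 to 2 without 1 mouse (2, *Pygm* and *Plin2*, without KO mouse 8), 2 with array weights (*Pygm* and *Plin2*) and 6 at the looser cutoff. All probe sets at the cutoff numbered 161, with a range of 49 (without WT mouse 3) to 992 (without KO mouse 8), and 85, 81, 63, 278 and 104 without KO mice 6, 7 and 9 and WT mice 2 and 5. It was 704 with array weights, 71 with the control contrast, 94 with the filter on dim probe sets, which has fewer to test, 73 by the unpaired t-test and 1164 at the looser cutoff. The cause was not tested. The median difference ran from −0.76 to −0.40 log2 for the glycolysis genes and from −0.52 to −0.06 log2 (without WT mouse 3) for the hypoxia-induced genes when each mouse was left out. No paired analysis was made, because the labels give nothing that pairs a KO mouse with a WT mouse.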
